A study of Mus musculus with 30 samples.

Results

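The subject is the transcriptome of untreated AtT-20 cells, read from the channel labelled untreated on each of 30 spotted cDNA arrays, that is, 30 of the 60 channels of the series. AtT-20 cells come from a pituitary tumour of the mouse and make ACTH. Cells were plated 48 h earlier in DMEM with 10% fetal calf serum, kept without serum for 18 h, and harvested at 1, 3, 6, 12 and 24 h with no hormone added, while the other channel of each array held RNA of cells given 100 nM human/rat CRH for the same time. At each time point 6 arrays carried aRNA amplified from 1 extract of untreated cells, with Cy5 on replicates 1 to 3 and Cy3 on replicates 4 to 6. These 6 arrays are technical replicates, so the 5 time points served as units, except in the tests over single arrays named below. What is measured is a single line under serum-free culture.

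Corticotropes are the pituitary cells that make ACTH. Pomc encodes its precursor, pro-opiomelanocortin, which prohormone convertases cleave in the regulated secretory pathway, and the peptide is stored in dense-core granules until CRH, acting through CRHR1 and cAMP, triggers release. The transcription factors Tbx19, Neurod1 and Pitx1 act together on the Pomc promoter and mark the lineage.

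Brightness was turned into a percentile rank among the 22830 gene spots of an array, after 1170 empty and 192 control spots were left out. A percentile of 90 means that a spot was brighter than 90% of gene spots on its array. Values are means over both dyes and then over the 5 time points, with the SD over the time points (n = 5) as error. Such ranks order spots and not transcripts, since brightness depends also on the cDNA, the amount printed and cross-hybridisation. Of the gene spots, 15829 (69.3%) carried a gene name, for 11090 named genes. A gene with several spots took the median over its spots, both of their means and, for the SD, at each time point. A listed gene is called measured where a spot name was matched to it, so a gene not measured may still be printed.

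The median intensity of gene spots ranged from 482 to 2175 between arrays and that of empty spots from 81.2 to 376. The number of arrays limits the precision. Against the 95th percentile of the empty spots of the same array, which lay between 2606 and 17021, 297 gene spots (1.3%) were above on all 30 arrays. The 48 empty positions in row 1, column 21 of each print-tip block were bright, with a median percentile of 99.5, and against the 95th percentile of the control spots 1536 gene spots (6.73%) were above on all 30 arrays. Where spots are called above the empty or the control spots, that 95th percentile is meant unless another limit is given. Between 11 and 262 spots per array reached the scanner limit of 65000.

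Pomc was among the brighter genes of the line. It had 1 spot, at a mean percentile of 94.6 ± 1.72 (SD, n = 5), and held place 283 of the 11090 named genes, so that 2.54% of them ranked above it. At 1 h the lowest, median and highest of the 6 arrays were 96.2, 98.0 and 98.2. At 3 h they were 89.7, 94.97 and 97.7, and at 6 h 85.2, 95.8 and 98.1. At 12 h they were 91.7, 93.3 and 94.7, and at 24 h 88.9, 94.5 and 97.3.

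The arrays of all times overlapped except that those at 1 h lay above all those at 12 h. The spot was 3.26 to 13.1 times as bright as the median gene spot of its array. It exceeded the 95th percentile of the control spots on 30 of 30 arrays, and that of all empty spots on 19. Its mean percentile was 95.2 in Cy3 and 94.1 in Cy5, and 95.6 in the CRH channel of the same arrays. The gene spots of its print-tip block had a median percentile of 40.2, and the block medians ranged from 36.7 to 68.4. Ranked after division by the block median, Pomc stood at 96.8.

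The other lineage factors did not stand together. Of the 6 corticotrope markers, 4 were measured by name, since no spot was matched to Crhr1 or to Pcsk1, the convertase that releases ACTH. Pitx1, a homeobox factor of the anterior pituitary, was the highest at 97.8 ± 1.42 (SD, n = 5), with time-point values of 98.2, 95.2, 98.4, 98.5 and 98.5 from 1 h to 24 h. Neurod1, a basic helix-loop-helix factor of corticotropes and neurons, had spots at 95.6 and 80.4, and its median was 88.0 ± 3.02.

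Tbx19, the T-box factor that drives Pomc, lay below the middle of the array at 40.2 ± 4.12, with 46.1, 35.96, 42.1, 40.3 and 36.8 over time. Its mean was 33.8 in Cy3 and 46.6 in Cy5. Ranked among only the 12994 spots that were dim on no array, it stood at 15.7. Leaving out dim spots lowers the percentile of those kept, so 15.7 and 40.2 are on unlike scales. Thus 3 of the 4 measured corticotrope markers were bright and the defining T-box factor was not. None of the 5 spots of these markers exceeded the 95th percentile of the empty spots on all 30 arrays.

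Across the wider list of corticotrope identity genes, 17 of 25 were measured. Their median percentile was 51.2, beside 49.7 over all named genes, and 2 of the 17, Pitx1 and Pomc, exceeded the 90th percentile, which 5.45% of named genes did. Insm1, a zinc-finger factor of endocrine cells, reached 88.3, and Ets1, an ETS-family factor, 80.3. Of the cytokine pathway that acts on Pomc, the shared receptor subunit Il6st stood at 58.3, Stat3 at 55.2 and the LIF receptor Lifr at 26.2. Hes1 and Lhx3, factors of pituitary development, stood at 51.2 and 43.2, and Isl1 at 11.5.

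The orphan nuclear receptors through which CRH acts on Pomc were dim in the untreated channel, the only one read for them here. Nr4a1 (Nur77) had a percentile of 21.6, Nr4a2 (Nurr1) of 20.4 and Nr4a3 of 8.64, and the highest time-point value of the 3 was 25.7. The place of the list depended on the setting, and its median lay above that of all named genes in 12 of 17 alternatives. It moved to 47.4 after division by the block median and to 27.9 with dim spots left out, where the median of all named genes was 49.7 and 48.1.

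**Figure D1:**
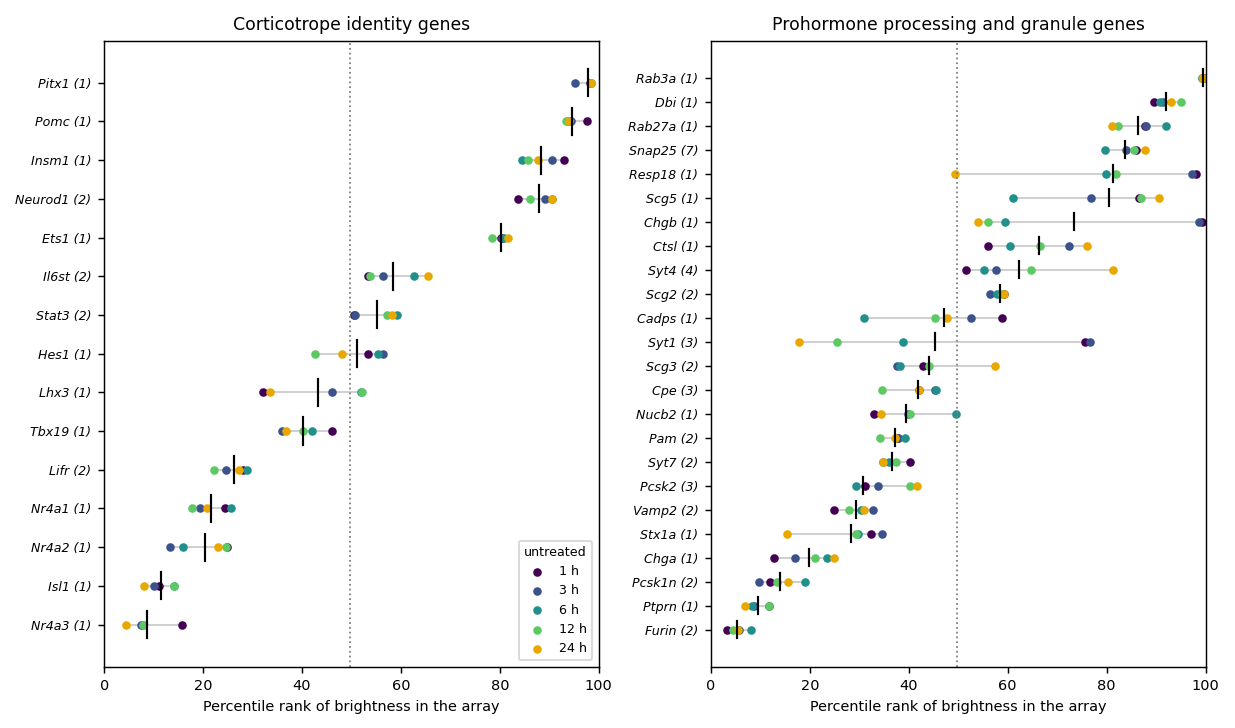
Percentile rank of brightness in untreated cells for the corticotrope identity genes (left) and the prohormone processing and granule genes (right) that are reported here, with the number of spots in brackets. Each coloured point is the mean of both dyes at 1 time point, and the black bar is the mean over the 5 times. Where a gene has several spots, each is the median of these means over its spots. The dotted line is the median of all named genes, 49.7. Pitx1 and Pomc lie at the right edge at all times, whereas Chgb, Resp18, Syt1 and Scg5 range widely.

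Prohormone processing and granule genes covered nearly the whole range, with 25 of 33 measured and a median of 45.3. Of the enzymes, Cpe, the carboxypeptidase that trims the cleaved peptides, had spots at 4.39, 41.9 and 98.3. Pcsk2, the second granule convertase, stood at 30.8, Pam, which amidates peptides, at 37.3, and Furin, a convertase of the Golgi, at 5.37. The convertase inhibitor Pcsk1n was at 13.96, while Scg5, the chaperone of the Pcsk2 enzyme, was at 80.4 ± 12.0.

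Granins, the packing proteins of dense-core granules, were as spread. Chgb reached 73.5 ± 23.3 as a mean of very unequal times, Scg2 had spots at 24.1 and 92.7, Scg3 stood at 44.1 and Chga at 19.8. The granule membrane protein Ptprn was at 9.51. No class of granule cargo was uniformly bright, and the value of a gene depended on which of its spots was read.

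Genes of vesicle docking and fusion included the brightest members of this list. Rab3a, a GTPase of secretory vesicles, reached 99.4 ± 0.107 and was among the 30 highest named genes. Rab27a, which tethers granules at the membrane, was at 86.3, and the SNARE protein Snap25 had 7 spots from 24.4 to 92.9 with a median of 83.7. Other SNARE and priming genes were lower, with Cadps at 47.1, Vamp2 at 29.4 and Stx1a at 28.3. The calcium sensors Syt4, Syt1 and Syt7 stood at 62.2, 45.3 and 36.6, and Dbi, an acyl-CoA binding protein that is also a source of peptides, at 92.0.

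With the brightest spot of each gene in place of the median, the granule list stood at 66.9 beside 57.0 for all named genes, and with dim spots left out at 55.02 beside 48.1. In the other 15 alternatives it stayed below all named genes.

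The measured markers of other cell types were lower than Pomc, but not all were lower than Tbx19, at 40.2. In every type except the other pituitary lineages, the highest marker lay above Tbx19. Of 7 markers of other pituitary lineages, Gh was the only one matched to a spot name, at 28.8 ± 8.48. A marker without a match may still be printed, as the authors report Cd3e, a T cell marker, from these arrays. The wider list of these lineages held 3 further measured genes, with Gata2, a factor of gonadotropes and thyrotropes, at 71.9, Six6 at 43.1 and S100b at 33.2. The 7 fibroblast markers ranged from 12.9 (Pdgfra) to 52.7 (Col3a1), 4 of 7 T cell and leukocyte markers from 25.5 (Csf1r) to 63.04 (Cd3d), and the 3 endothelial markers from 50.9 (Kdr) to 70.3 (Pecam1). The 3 blood markers lay between 30.8 and 60.3, the 4 of glia and neurons between 19.6 and 49.8, the 4 of muscle between 43.9 and 75.3 and 3 of 4 of liver between 21.6 and 53.8. No spot of these markers exceeded the 95th percentile of the empty spots on all 30 arrays, and a mid-array percentile was also the typical value of any named gene. A percentile in this range was therefore not read as expression of the marker. The part of cross-hybridisation or of other cells in these values was not tested, and in such bulk RNA fewer cells of a type and less RNA per cell cannot be told apart.

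The receptor pathway was represented by 35 of 48 genes of CRH and cAMP signalling, with a median of 54.4. Rgs2, which restrains G protein signalling, was the highest at 96.6, although its 3 spots lay at 99.7, 96.6 and 39.3. Calm2, a calmodulin gene, reached 94.9 with 5 spots from 43.0 to 98.8, and Prkar1a, the regulatory subunit that holds protein kinase A inactive, 94.1 with 4 spots from 75.5 to 98.3. Gnas, the stimulatory G protein that couples CRHR1 to adenylyl cyclase, had spots at 98.7 and 61.2. Crhr2, the other CRH receptor, was the lowest gene of the list at 8.91 ± 3.57.

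Immediate early genes were the dimmest of the 22 lists. Their median was 22.8, 17 of 22 lay below the 50th percentile, beside 50.4% of all named genes, and the median stayed below that of all named genes in 17 of 17 alternatives. Fos, the prototype of the class, stood at 6.66, with 5.21, 6.54, 10.7, 5.25 and 5.61 over time. Egr3 was the exception at 93.2 ± 3.40, followed by Klf2 at 72.4 and the MAP kinase phosphatase Dusp1 at 61.7 ± 19.03.

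Genes of protein synthesis were the brightest lists. The 78 ribosomal protein genes had a median of 87.5, and 35 of them exceeded the 90th percentile. Of their 110 spots 41.8% were above the control spots on all 30 arrays, beside 6.39% of all named spots. Rps27a was the highest at 98.9 ± 0.195, followed by Rpl39l at 98.3, Rpl10 at 98.0 and Rps19 at 97.6, while Rps20 was at 4.47. The 37 translation factor genes had a median of 75.2, with Eif2s2 at 97.4, Eif3h at 97.1, Eef1b2 at 95.5 and Pabpc1, the poly(A) binding protein, at 95.3.

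Chaperones followed at 74.7 over 29 genes, led by the cyclophilins Ppia at 99.3 and Ppib at 95.4 and by Hspa5 (BiP), the main chaperone of the endoplasmic reticulum, at 96.2. The cytoskeleton list stood at 65.8, with Tuba1b at 97.0, Arpc1a at 94.1 and Actb at 93.8. The lists of ribosomal proteins, translation factors, chaperones, cytoskeleton, cholesterol synthesis, glycolysis, respiratory chain and reference genes lay above all named genes in 17 of 17 alternatives.

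Energy metabolism was in between, with medians of 65.1 for glycolysis and 64.9 for the respiratory chain and ATP synthase. Ldha, lactate dehydrogenase, led the former at 97.1 ± 0.531, and Cox6c, a subunit of cytochrome c oxidase, the latter at 99.4 ± 0.0749. Among 45 cell cycle genes, with a median of 63.2, Hmgb2 reached 98.0, the replication clamp Pcna 97.4, Plk1 93.2 and thymidine kinase Tk1 90.2. Cholesterol synthesis had a median of 65.2 and no gene above the 90th percentile, with Hmgcs1, which makes HMG-CoA, at 89.3. The list of serum withdrawal and autophagy stood at 56.6, led by Ddit4, an inhibitor of mTORC1, at 92.6, with the lysosomal membrane proteins Lamp2 and Lamp1 at 87.4 and 84.6. The proteasome and ubiquitin list stood at 60.2, with Ubb, a polyubiquitin gene, at 99.3.

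**Figure D2:**
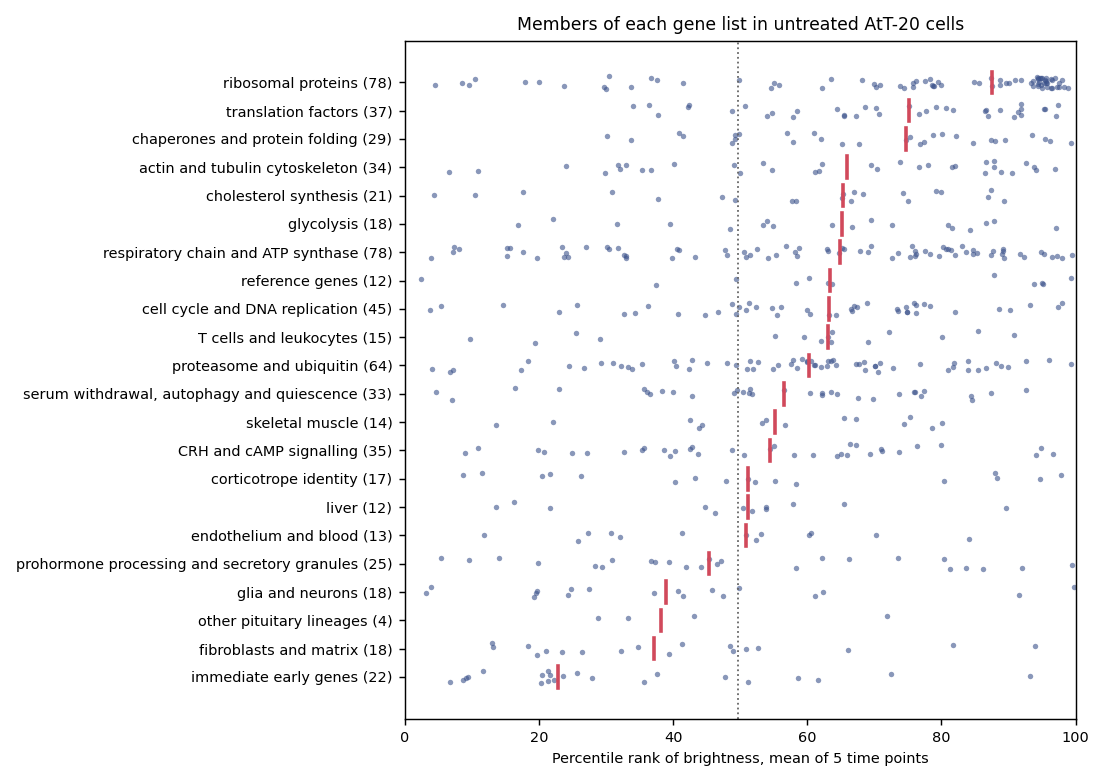
Mean percentile rank of brightness of every measured gene (blue points) in each of 22 gene lists, with the number of genes in brackets. Red bars are list medians and the dotted line is the median of all named genes, 49.7. Of the ribosomal protein genes 35 of 78 lie above 90, with a median of 87.5, immediate early genes lie at the lower end, with a median of 22.8, and nearly all lists reach from dim to bright spots.

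Lists of other cell types lay on both sides of all named genes. T cell and leukocyte genes had a median of 63.04 over 15 genes, with Cd74 at 90.8 and Itgam at 85.5. With dim spots left out that median was 43.1, on a scale that held only the 12994 spots kept. Skeletal muscle genes had a median of 55.2 with Myod1 at 80.1, and liver genes one of 51.1 with Cyp2e1 at 89.7. Fibroblast and matrix genes had a median of 37.1, other pituitary lineages one of 38.2 and glia and neurons one of 38.95. In glia and neurons, 14 of 18 genes were below the 50th percentile, yet Gad1, the enzyme of GABA synthesis, was at 99.8 and the neurofilament gene Nefm at 91.6. The reference genes spread as far, from Ppia at 99.3, Tfrc at 95.2 and Rpl13a at 95.1 to Hprt at 2.403 ± 1.25.

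The highest named genes were at or near the scanner limit. The 30 highest lay between 99.4 and 99.8 and included Exosc9, Capns1, Rtn4r, Scoc, Nme4, Gad1, Dnajc24, Rell2, whn-dependent transcript 3, sperm specific antigen 2, Ncln, Tor1a, Sfxn2, Csnk2b, Vps8, an N-acetylgalactosaminyltransferase, Ei24, Ankrd1, Pou5f1, Nme1, Fads1, Prph, Strn, Ehf, Polm, Taf6l, Rab3a, Slc36a2 and Mlf1. They encode, among others, a subunit of the RNA exosome (Exosc9), the small subunit of calpain (Capns1), the Nogo receptor (Rtn4r), nucleoside diphosphate kinases (Nme4, Nme1), the casein kinase 2 regulatory subunit (Csnk2b), a fatty acid desaturase (Fads1) and peripherin (Prph). Also among them were Pou5f1, the pluripotency factor Oct4, and Ankrd1, an ankyrin repeat protein of cardiac muscle. On the Cy5 arrays the first 7 genes had the same mean percentile of 99.7, tied at the limit, so their order is not resolved.

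Of the 100 highest genes 98 had 1 spot and 72 had a spot at the scanner limit on at least 1 array. With every spot, 85 exceeded the 95th percentile of the empty spots on all 30 arrays. Their median SD over the time points was 0.208, from 0.0383 for Nme1 to 1.96 for Scarb2, and the lowest value of any of them at any time was 95.3. As they were chosen by their mean over the same times on a bounded scale, these values are a description. From 79 to 88 of them were among the 100 highest at each time point taken alone. Of the 100, 95 were also among the 100 highest in the CRH channel of the same arrays. Scarb2, a lysosomal membrane protein, fell from 99.8 at 1 h to 95.3 at 24 h, and Snx32, a sorting nexin, stood at 95.8 at 1 h and between 99.6 and 99.8 later.

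Where a gene was printed more than once, its spots seldom agreed. The 2449 genes with exactly 2 spots differed by a median of 23.2 percentile points, 1142 of them (46.6%) by more than 25 and 566 (23.1%) by less than 10. Across these genes the Spearman correlation between the spots was 0.134, a description over genes that share arrays and are not independent. Of 108 named spots at or above the 99th percentile, 60 belonged to genes with further spots, and those 122 further spots had a median of 55.8, with 14 at or above 90 and 56 below 50.

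Genes with at least 3 spots gave a top that rests on more cDNA clones. The 10 highest included H3f3a at 98.3, Dut at 97.1, Rgs2 at 96.6, Rpl15 at 95.4, the gene named heat shock protein, 1 at 95.1, Calm2 at 94.9, Rpl19 at 94.8, Rpl27a at 94.6 and Prkar1a at 94.1. H3f3a encodes the histone H3.3 and Dut the dUTPase of nucleotide metabolism. Even here single spots departed, as at 57.5 in H3f3a, 24.8 in Dut and 17.3 in Rpl27a. For heat shock protein, 1 all 5 spots lay between 89.1 and 98.0.

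**Figure D3:**
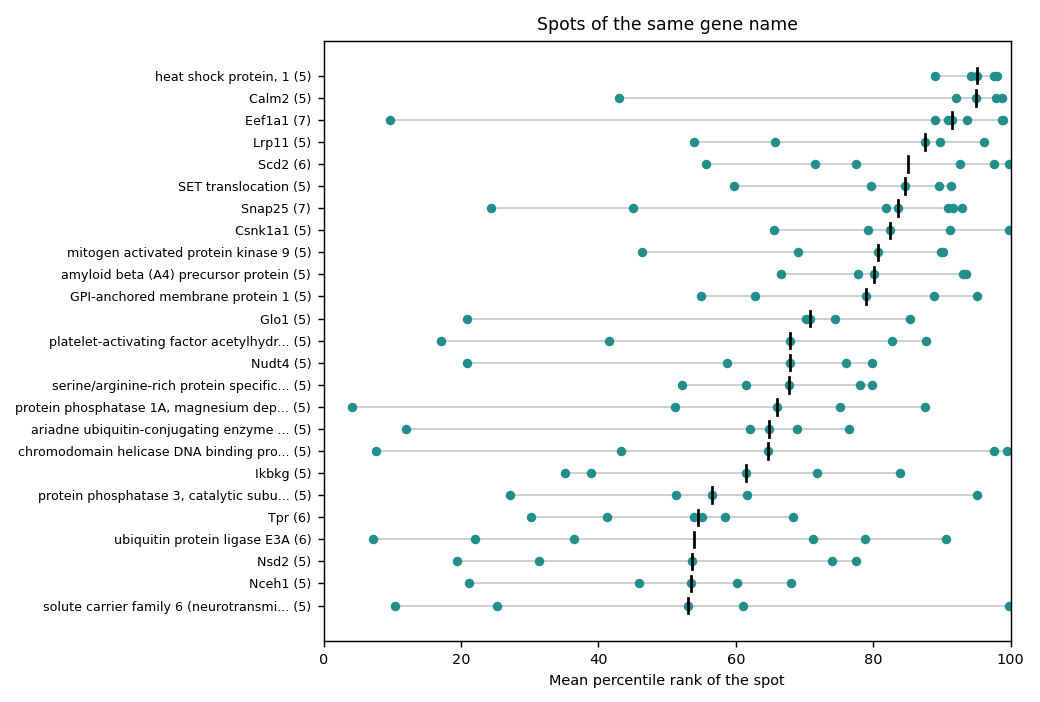
Mean percentile rank of each spot (green) of reported genes among the highest of those printed on at least 5 spots, with the number of spots in brackets and the gene's median as a black bar. The 5 spots of heat shock protein, 1 lie within 89.1 to 98.0, whereas the 7 spots of Eef1a1, the elongation factor, reach from 9.64 to 98.9.

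The spread of ranks over the 5 harvests depended on the place in the order. The SD over the time points of a gene spot was 5.69 percentile points in the median, and the SD between single arrays of the same time and dye was 5.90 in the median. The former is an SD of means over 6 arrays and the latter one of single arrays, so their likeness does not show that times differed as little as arrays. It was smallest at the ends of the order, 2.87 in the lowest and 2.37 in the highest decile, and 7.74 in the sixth. Of all gene spots 8.498% had an SD below 2 and 15.4% one above 10. The 182 spots at or above the 99th percentile had a median SD of 0.101. Percentiles are bounded at 100 and spots at the scanner limit are tied, so a small SD at the top shows the scale as well as the cells.

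Spearman correlations over the 22830 spots between time-point means ranged from 0.878 (1 h and 24 h) to 0.960 (1 h and 3 h), and those between the untreated and the CRH channel of the same array from 0.915 to 0.973. Single arrays of the same time and dye correlated at a median of 0.887, of the same time and other dye at 0.850, and of different times and the same dye at 0.816. They are given as descriptions, since all arrays share the print layout. The untreated and CRH channels of an array had a median of 0.956, above that of arrays that shared an extract and dye.

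**Figure D4:**
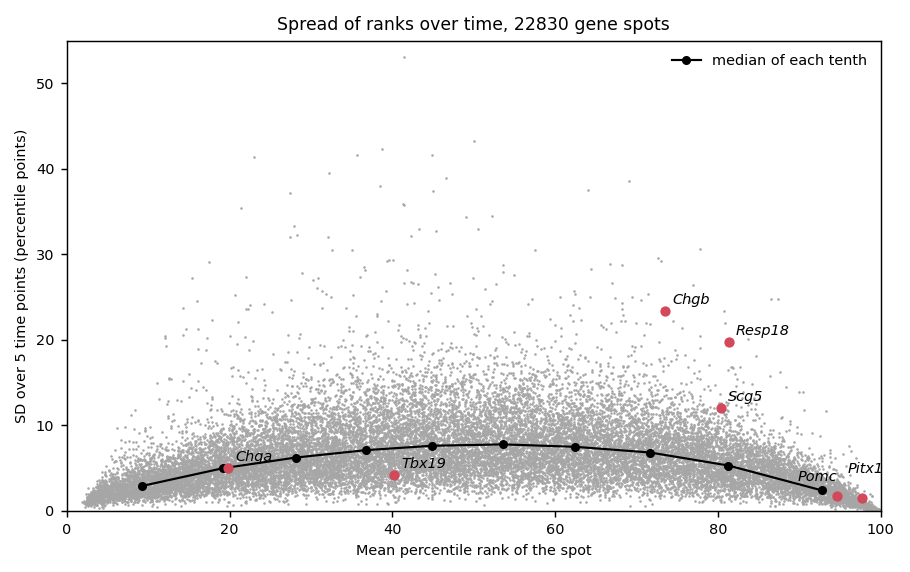
SD of the percentile rank over the 5 time points against the mean percentile of each of the 22830 gene spots (grey), with the median of each decile as black points. Labelled in red are Pomc, Pitx1, Tbx19 and Chga, which lie at or below the decile medians, and Chgb, Resp18 and Scg5, which lie above them with SDs of 23.3, 19.8 and 12.0. The highest decile, with a median of 2.37, is not uniform, since its spots at or above the 99th percentile had a median SD of 0.101.

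Changes over time in untreated cells were tested with limma on normal scores of the ranks, that is, ranks mapped to a standard normal scale, with p-values adjusted by Benjamini-Hochberg over all 22830 spots. In the fit on the 5 time-point means, 282 spots (1.24%) had a slope with the log2 of hours at an adjusted p under 0.05, 108 (0.473%) upwards and 174 (0.762%) downwards. Over single arrays, 6555 spots (28.7%) differed among the time points, but those p-values reflect only how far repeated hybridisations of an extract differ. Arrays were quantified on 4 days that nearly coincide with the times, so time and day cannot be told apart for most contrasts. All arrays at 3 h and 6 h share a day, and 2 of the 6 arrays at 12 h share one with those at 24 h. At 6 h against 3 h, in the same fit over single arrays, 257 spots (1.13%) passed, 128 (0.561%) higher and 129 (0.565%) lower at 6 h. The SEs and p-values of this contrast also reflect only repeated hybridisations of an extract at each time, and not the spread between cultures. The slopes depended on the setting. Without the 12 h time point, on plain percentile ranks, or in either dye alone, the number of slopes that passed was 0.

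None of the 21 spots of corticotrope identity genes, that of Pomc among them, passed in the slope or in the 6 h contrast. Of all gene spots 1.24% and 1.13% did, and at such shares 0 of 21 spots is no result about these genes. Over single arrays 2 of the 21 spots (9.52%) differed among the time points, beside 28.7% of all gene spots. Among granule genes 3 of 48 spots fell with time and 2 of 48 were lower at 6 h than at 3 h, beside 0.762% and 0.565% of all gene spots. Chgb (chromogranin B) was the largest. On the 6 arrays at 1 h it lay between 99.02 and 99.3 with a median of 99.2, and at 3 h between 97.3 and 99.3 with a median of 98.9.

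At 6 h Chgb ranged from 27.8 to 98.2 with a median of 56.2, at 12 h from 35.8 to 70.9 with a median of 55.4, and at 24 h from 26.3 to 74.9 with a median of 57.0. All arrays at 1 h and 3 h thus lay above all those at 12 h and 24 h, while the highest array at 6 h overlapped with those at 3 h. The change at 6 h was −1.86 on the normal-score scale (SE 0.24, adjusted p = 2.9e-05 by limma), kept with each replicate left out and lost, at an adjusted p of 0.261, on the Cy5 arrays alone. In the CRH channel Chgb took the same course, with time-point means of 99.04, 98.96, 60.1, 57.2 and 60.3.

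The spot of Syt1 at 45.3, the middle of 3, moved in the same direction, with means of 78.6, 81.8, 33.6, 14.7 and 17.8 over time (−1.42 at 6 h, SE 0.202, adjusted p = 0.00015 by limma). The call at 6 h was lost on the Cy5 arrays alone, at an adjusted p of 0.0996 by limma. The CRH-channel means of this Syt1 spot were 80.1, 78.4, 25.5, 15.1 and 18.6. Resp18, an endocrine protein of the endoplasmic reticulum and granules, had the third falling slope (−0.43 per doubling of time, adjusted p = 0.042 by limma), but its arrays fell into separate sets. It lay at 92.9 or above on 25 arrays and at 2.80 or below on 5, which were replicate 3 at 6 h, replicate 6 at 12 h and replicates 4 to 6 at 24 h. The CRH channel lay with the untreated channel, either below the 10th or above the 90th percentile, on 29 of the 30 arrays. On the remaining array, replicate 6 at 6 h, it stood at 89.1 beside 92.9 in the untreated channel.

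Spots that switched between the ends of the scale were not confined to Resp18. Of all gene spots, 339 (1.48%) lay below the 10th percentile on some array and above the 90th on another, and 216 did so within a single time point, that is, with the same RNA. The most extreme was the spot named target of myb1 homolog, a vesicle sorting protein, with means of 99.6 and 99.7 at 1 h and 3 h and of 2.95, 2.36 and 2.75 later. It had the largest change at 6 h (−4.75, SE 0.221, adjusted p = 6.7e-16 by limma), and its CRH-channel means were 99.7, 99.7, 1.87, 2.74 and 2.19. The part of the printed spot or the hybridisation in these switches was not tested.

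**Figure D5:**
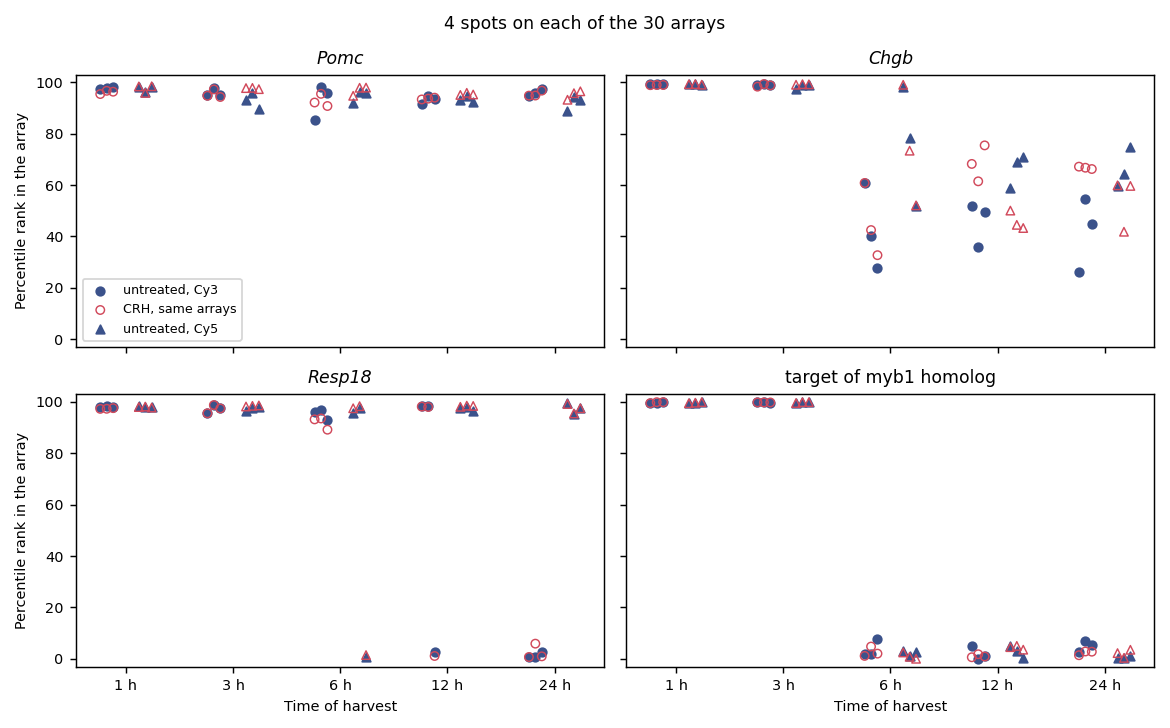
Percentile rank of 4 spots on each of the 30 arrays by time of harvest, with untreated RNA filled (circles in Cy3, triangles in Cy5) and the CRH channel of the same array open in red. Pomc stays above 85 on all arrays, Chgb lies at 97.3 or above at 1 h and 3 h and at 74.9 or below at 12 h and 24 h, Resp18 splits into arrays at 92.9 or above and at 2.80 or below, and the spot of target of myb1 homolog drops below 8 from 6 h on.

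Among the largest rises with time, arrays of the same RNA also differed widely. The spot of Rpl36a at 46.5 went from 7.44 and 2.57 at 1 h and 3 h to 61.6, 74.9 and 86.2 (slope 0.71, SE 0.127, adjusted p = 0.038 by limma), while the gene's other spot stood at 93.3. The spot of Hsp90b1 at 30.7, the ER chaperone GRP94, rose from 3.00 and 1.42 to 49.01, 47.95 and 52.2 (slope 0.61, SE 0.112, adjusted p = 0.038). At 24 h the Hsp90b1 spot ran from 9.17 to 94.9 over the 6 arrays, and that of Rpl36a from 82.9 to 90.6. Akap1, an anchor of protein kinase A, had means of 22.4, 9.80, 43.1, 66.4 and 70.6. Also upwards were spots named telomerase binding protein, p23 (from 15.98 to 98.2), SEC61, alpha subunit 2 (from 3.78 to 79.5), globin inducing factor, fetal (from 3.65 to 76.1) and B4galt5 (from 1.19 to 63.4), all as means of 6 arrays. At 24 h the arrays of B4galt5 ran from 1.28 to 92.6 and those of telomerase binding protein, p23 from 98.1 to 98.3.

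Among the falls were ribonuclease P1 (from 99.5 at 1 h to 1.92 at 24 h), c-myc binding protein (from 95.3 to 4.12), serine/threonine kinase receptor associated protein (from 92.7 to 13.5), a spot of the kinesin gene Kif5b (from 90.1 to 3.46) and one of Fbxl20 (from 68.9 to 2.20). Their arrays did not move together at all times, since at 6 h c-myc binding protein ran from 0.670 to 96.8 and at 3 h ribonuclease P1 from 6.85 to 99.5 and Kif5b from 0.604 to 88.9. The cyclin gene Ccnd3 fell from 94.95 to 56.6, the proteasome subunit Psmb5 from 98.2 to 83.9 and Cyp2e1 from 97.3 to 76.7. Arpc5, a subunit of the actin-nucleating Arp2/3 complex, fell from 66.5 to 15.9. None of these slopes passed without the 12 h time point.

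Between 3 h and 6 h, within a day of quantification, Egr1, an immediate early transcription factor, was higher at 6 h. Its means were 25.3, 25.9, 62.1, 43.4 and 22.3 over time (1.00 at 6 h, SE 0.214, adjusted p = 0.021 by limma), and those of the CRH channel 35.9, 26.9, 59.4, 43.1 and 24.2. The call was lost without replicate 4, 5 or 6. Idi1, an enzyme of isoprenoid synthesis, was lower at 6 h, with 51.6, 54.0, 24.9, 52.01 and 53.5 (−0.95, SE 0.218, adjusted p = 0.027), and so were one spot each of Tuba1b and the proteasome gene Psmc6. Cox7c of the respiratory chain was higher. Of the 6 settings that leave out a replicate, the call of Idi1 and that of Cox7c passed in 3, and those of Tuba1b and Psmc6 in 2. The call of a further gene of the chain, Atp5j2, passed in 0 of 6 and in neither dye alone. Among the largest falls were also Nat8l (from 72.1 at 3 h to 13.2 at 6 h) and T-cell leukemia, homeobox 3 (from 84.2 to 16.9). Both of these passed with each replicate left out, the latter with arrays from 1.01 to 75.6 at 6 h. On the Cy5 arrays alone the call of T-cell leukemia, homeobox 3 was lost, at an adjusted p of 0.109 by limma. Spots among the largest rises differed between arrays of the same RNA. The spot named polymerase (DNA directed), gamma 2, accessory subunit ran from 0.011 to 95.5 at 3 h and from 93.3 to 95.3 at 6 h. That named Ras-related associated with diabetes ran from 2.18 to 9.60 at 3 h and from 22.8 to 91.9 at 6 h, and that named low density lipoprotein receptor-related protein 8, apolipoprotein e receptor from 0.015 to 2.65 and from 0.239 to 58.0. Each of these 3 calls passed in 2 of the 6 settings that leave out a replicate. With each replicate left out, the number of spots that passed ranged from 42 to 336.

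The CRH channel of the same arrays was read at the spots that passed in untreated cells. All 282 slopes had the same sign in the CRH channel, at a median of 0.968 of their size, and so did 256 of the 257 differences between 6 h and 3 h, at a median of 0.884, the exception being Rbms1. These channels share their arrays and the spots were chosen for their change in 1 of them, so the values are a description. The smallest ratio among the slopes was that of Crem, a transcription factor of the cAMP response, at 0.216. In untreated cells Crem stood at 15.2, 25.9, 37.8, 37.1 and 59.9 (slope 0.29, SE 0.049, adjusted p = 0.032 by limma, not kept without the 12 h time point). In the CRH channel it stood at 50.5, 50.8, 44.7, 55.3 and 62.5, so the channels differed most at 1 h.

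No spot passed the comparison of Cy3 with Cy5 over the 5 time points (0 of 22830, 0.0%, by limma), while 1973 had an unadjusted p under 0.05. When only the 297 spots above the empty spots were tested, 30 passed, 26 higher and 4 lower in Cy3. Spots at the scanner limit are tied in rank, and the part of such ties in these calls was not tested. Among the named spots with large differences, none past the test, were Gpatch2l (26.8 in Cy3 and 6.52 in Cy5), T cell cytokine receptor (50.7 and 83.2), ras homolog gene family, member U (52.5 and 83.98) and Insig1 (49.3 and 84.5).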

How the data were processed

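Deposited intensities of each spot and its surroundings, per the file headers, came from the authors' scans on a ScanArray scanner, quantified in QuantArray by the fixed circle method, without background subtraction or normalisation. The table of normalised log2 ratios made by the authors gives no level of a single channel and was not used. The dye of the untreated RNA came from the labels and its channel from the headers. Extra channels of another slide in 1 file were not used.

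Ranks were taken within arrays over 22830 gene spots, averaged over 3 arrays per dye, both dyes and 5 time points. Names were matched to RefSeq symbols or synonyms for 7385 spots, and otherwise kept. Tests used limma 3.58.1 in R 4.3.3 with an intensity trend. They were run on simulated arrays with independent noise and no shared effect of extract or day, so that check does not cover such effects. Other steps used Python 3.11.15, numpy 2.4.6, pandas 2.3.3 and scipy 1.17.1. Named were Pomc, the 30 highest genes, the 10 highest with at least 3 spots, all measured corticotrope, granule and pituitary lineage genes, up to 4 highest members and the lowest of each other list, and up to 6 spots per direction of each test (4 for dye) and extremes of SD among the 100 highest. Some genes that this rule names are not reported here. Members and lists were chosen with earlier results of these data known. Replicate numbers coincide with dye and do not pair arrays. Alternatives covered background, block median, dim and saturated spots, dye, time points, replicates, test scale and detection limit. Nothing states that cultures were replicated, so p-values over arrays measure hybridisation only.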

Additional observations from a re-analysis of the deposited data

Results flagged for a closer look

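In 65 groups of 6 arrays checked, 10 single values stood apart from the other arrays of their time point by the Dixon criterion, which chance meets in about 1 of 20 groups. Pomc stood apart on replicate 2 at 1 h, at 96.187, the lowest of its group. The spot of Pitx1 was at 80.804 on replicate 5 at 3 h, where Neurod1 was also low at 75.863, and Neurod1 was at 88.789 on replicate 4 at 6 h. Scg5 was low on replicate 4 at 1 h (65.591) and at 3 h (43.357) and on replicate 3 at 12 h (64.106). Resp18 was at 0.618 on replicate 3 at 6 h and at 2.635 on replicate 6 at 12 h, where the nearest other arrays lay at 92.867 and 96.463. Chgb was at 97.291 on replicate 1 at 3 h, a small gap in a narrow group.

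The empty positions in row 1, column 21 of the 48 print-tip blocks gave signal, with a median percentile of 99.546 beside 4.446 for the other 1122 empty spots. Of the latter, 116 lay above the 50th percentile, 93 of them in 7 blocks. With all empty spots 297 gene spots were above their 95th percentile on all 30 arrays, and without row 1, column 21 the number was 1192.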

How the results depend on the processing

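The percentile of Pomc was 96.8 after division by the block median and 90.9 with dim spots left out, and 94.2 to 95.2 with each replicate left out. With dim spots left out 9 of the 22 lists lay above all named genes, beside 17. Of the 100 highest genes 28 were kept without spots at the scanner limit and 46 when the brightest spot stood for a gene.

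The median SD over time was 5.44 after division by the block median, 7.56 in Cy3, 6.69 in Cy5, 5.53, 5.17 and 5.10 without 1 h, 6 h and 24 h, 0.162 for spots above the empty spots, and 5.79 to 6.13 with each replicate left out. The number of spots above the empty spots was 453 in Cy5, 0 at the 99th percentile, 666 on at least 24 arrays, and, in alternatives chosen after seeing the data, 1192 without row 1, column 21, 11470 at the 75th percentile and 1536 against the control spots.

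Slopes numbered 123 with dim spots left out, 0 on percentile ranks, 4 among spots above the empty spots, 0 in Cy3, 0 in Cy5, and 152, 80, 1322, 0 and 24 without 1, 3, 6, 12 and 24 h. Differences among times numbered 154 above the empty spots, 4032 in Cy5 and 4168 to 5458 with each replicate left out. Those of 6 h against 3 h numbered 81 after division by the block median, 128 with dim spots left out, 3 above the empty spots, 53 in Cy5 and 42 to 336 with each replicate left out. The dye test gave 30 above the empty spots. Fewer spots or arrays entered the dye, time and detection settings, whereas all 22830 spots entered on percentile ranks. The cause of the changed counts was not tested.

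Replicate numbers as a block gave 5975 and 213 calls in place of 6555 and 257; same-numbered arrays correlated at −0.096 to 0.145 in their deviations, and 4 of 30 arrays correlated best with their own number, so the numbers do not pair arrays. For 24 h against 12 h, 7 spots passed without and 7 with the day as a term, and 0 were shared. No signed test result changed sign, but lists changed sides of the median of all named genes, among them corticotrope identity in 5 of 17 alternatives, granules in 2 and T cells in 1. Of the other values, 3430 gene percentiles stayed within 1 SD and 273 moved, and 325 list medians did and 49 moved. The outcome of 552 spot tests was kept, and 287 lost their call. The 552 include the dye tests of 8 spots in each setting, which had no call to keep. Brightness over the empty spots limits what can be said of dim genes.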

Other observations

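Of 3411 named genes with at least 2 spots, 27 had all their spots at or above the 90th percentile, a set chosen after its values were seen. They held translation genes (Eif2s2 at 97.4, Eef1b2 at 95.5), ribosomal protein genes (Rpl30 at 97.3, Rps27 at 94.5, Rpl14 at 94.5), the vacuolar ATPase subunit Atp6ap2 at 98.4, cytochrome c (Cycs) at 97.3, Pcna at 97.4, the transferrin receptor Tfrc at 95.2, Tuba1b at 97.0, the amino acid transporter Slc7a1 at 91.5 and Mff, a mitochondrial fission factor, at 92.2. Mff was the only gene with 3 spots among them.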
